A study of Rattus with 9 samples.

Results

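The 7 genes studied here act in leukocyte adhesion, and they were followed through the bile ducts of sham-operated and transplanted rats. They were the selectins Sele and Selp, the selectin ligand Selplg, and the immunoglobulin-family receptors Icam1, Icam2, Vcam1 and Madcam1. The members were the rows with these 7 symbols, out of 23836 distinct symbols in the count matrices, and each symbol matched 1 row. Their gene identifiers in the files were ENSRNOG00000002723 (Sele), ENSRNOG00000002794 (Selp), ENSRNOG00000000699 (Selplg), ENSRNOG00000020679 (Icam1), ENSRNOG00000025143 (Icam2), ENSRNOG00000014333 (Vcam1) and ENSRNOG00000008217 (Madcam1).

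Leukocytes leave the blood in steps. Selectins on activated endothelium first slow the passing cell by binding sugar groups on ligands such as PSGL-1, the product of Selplg, and receptors of the immunoglobulin family then hold it through leukocyte integrins. Sele (E-selectin) is made anew by endothelium under cytokines, whereas Selp (P-selectin) is also stored ready-made in endothelial granules and in platelets. Icam1 and Icam2 bind LFA-1, Vcam1 binds VLA-4, and Madcam1 is best known from the venules of gut mucosa, where it binds the integrin α4β7.

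Cells of the rat bile duct were profiled by 10x Genomics 3′ single-cell RNA sequencing in 9 samples made of 20 libraries. The group sham held 3 samples with 1 library each, and the labels say no more of that operation. The group ctrl held rats with a liver transplant (LT) and ischemic injury, as 1 sample at each of days 1, 3 and 7 after LT, with 3 libraries each. The group treat held rats with the same LT whose hepatic arterial flow was raised by tying off the splenic and gastroduodenal arteries, again with 1 sample a day, of 3, 2 and 3 libraries. A further library of treat day 3 was not analysed here. All ctrl and treat samples are called grafts below. No transgene or deletion was named for any group. The study's methods give in situ warm ischemia of the liver for all of its transplants and young Sprague-Dawley rats of both sexes. They do not describe the treat operation, and they give saline injections to a control group of which it is not stated whether it is the ctrl of these samples. The paper takes its rat single-cell data from earlier work of its authors, and it is not stated that these details hold for these samples. It is not stated which libraries share a rat, so the libraries of each sample were summed, and p-values measure only the spread between these samples. No arm and day had a second sample. In the main fits that spread therefore came from the 3 sham samples and from grafts departing from separate effects of arm and day.

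After filtering, 139004 cells remained, from 2270 to 31593 a sample, and the UMIs in cells summed to between 9309418 and 195778957 a sample. Sham1 had the fewest cells. Of the ctrl day 3 cells, 6817 of 7530 came from its library 1, because 2472 and 3961 barcodes of libraries 2 and 3 failed only the hemoglobin limit. No pair of libraries had more than 1.19% of the smaller one's cell barcodes in common. Cell types were rebuilt by clustering and named "-like" from marker lists, so the names are not those of the study. As a class, the 6732 vascular endothelial cells (EC-like) held all 11 endothelial markers, among them Cdh5, Flt1 and Plvap. The summed level of these markers in EC-like cells was 7503 to 12208 UMIs per 1000000 UMIs of those cells (CPM, unique transcripts of the gene scaled to the depth) in sham, 4441 to 5293 in ctrl and 5282 to 5945 in treat, with the highest value in sham1. A small EC-like cluster of 112 cells had 8 of the 11 endothelial markers detected and no UMI of Sele, Selp or Madcam1. It was 7.43% of the EC-like cells of treat day 1 and 2.75% of those of ctrl day 7. No reference genome was used here, so no sequence or coordinate is given.

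The members divided into genes found mostly in blood endothelium and genes shared by many cell types. Sele, Selp and Madcam1 were the narrow ones, Selp the least so. EC-like cells held 81.8% of the 3644 Sele UMIs, 74.2% of the 10708 Selp UMIs and 87.9% of the 7781 Madcam1 UMIs, pooled over samples. By sample these shares ranged from 71.4% to 97.7% for Sele, 51.2% to 94.4% for Selp and 76.3% to 97.2% for Madcam1. In ctrl day 1, where the Selp share was lowest, the biliary epithelium (BEC-like) held 21.0% of the Selp UMIs. Selplg was on the other side of the contact: neutrophil-like cells held 26.0% of its 1285 UMIs and NK&T-like cells 24.0%, with a further 26.1% in unnamed clusters, against 0.467% in EC-like cells. The order of these leukocytes changed by sample: on day 1 neutrophil-like cells held 53.1% and NK&T-like cells 3.45% in ctrl and 42.9% and 6.59% in treat, and on day 7 they held 13.2% and 39.1% in ctrl and 8.25% and 39.4% in treat. Fibroblast-like cells held 64.7% of the 24982 Vcam1 UMIs, from 92.0% and 94.0% in treat day 1 and sham2 to 47.0% and 33.7% in ctrl and treat on day 7, where macrophage-like cells held 31.6% and 26.1%. Icam1 and Icam2 were spread widely. These levels are a description, since the clusters were built from the same cells.

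E-selectin UMIs lay almost wholly in EC-like cells and in VSMC-like (smooth muscle) cells, which also carried endothelial markers, as given below. Its level in EC-like cells ran from 21.4 to 157 CPM over the 9 samples, with a mean of 88.6 ± 46.1 (SD, n = 9). The next type in order was VSMC-like, with 1.95 to 63.1 CPM, and its range overlapped that of EC-like cells. In every other named type the mean was 0.270 CPM or less. A Sele UMI was seen in 15.9% of EC-like cells (exact binomial 95% interval 15.0 to 16.8) but in 0.123% of BEC-like cells, the biliary epithelium that lines the duct and serves here as the background. The median depth was 3592.5 UMIs in EC-like cells and 6472.5 in BEC-like cells, so the background was read at the greater depth. Intervals of this kind cover counting error only.

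P-selectin followed the same order. EC-like cells had 96.1 to 407 CPM, VSMC-like cells 0 to 221 CPM, and lymphatic endothelium (LEC-like) 0 to 25.9 CPM. Among the 10 main types neutrophil-like cells came next to LEC-like cells, with a mean of 8.13 against 8.93 CPM, a gap well inside the spread of either. Acinar-like cells, which are not among these types, had 0 and 18.3 CPM in 2 samples. Madcam1 had 102 to 296 CPM in EC-like cells, 0 to 121 CPM in VSMC-like cells and at most 9.84 CPM in any sample of the other named types. The VSMC-like cells also carried endothelial markers, at a summed 406 to 3129 CPM in sham, 552 to 1316 in ctrl and 1642 to 2567 in treat, with none of the 11 at 0 in any sample. As a cluster, VSMC-like cells had 10 of these 11 markers detected. The part of that endothelial signal in the VSMC-like values of Sele, Selp and Madcam1 was not tested.

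Icam2, the resting-state integrin ligand of endothelium and leukocytes, was highest in EC-like cells, at 260 to 610 CPM (mean 362 ± 102, SD, n = 9). LEC-like cells followed with 91.3 to 290 CPM, and macrophage-like cells with 47.6 to 149 CPM overlapped them. In BEC-like and fibroblast-like cells the mean was 1.19 and 1.29 CPM. Icam1, which most cells can make when inflamed, had another order. Monocyte-like cells led with 258 to 687 CPM, then macrophage-like cells with 116 to 669 CPM. VSMC-like, neutrophil-like, B-like, LEC-like and EC-like cells had means between 183 and 221 CPM, and these neighbours did not differ beyond their spread. BEC-like cells had 20.1 to 109 CPM of Icam1, and 26.4% of them had a UMI of it.

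Vcam1 joined stroma and vessel. Fibroblast-like cells had 46.6 to 186 CPM (mean 108 ± 56.7, SD, n = 9) and EC-like cells 8.06 to 218 CPM (mean 77.4 ± 68.8), so the 2 leading types overlapped. Macrophage-like cells ranged from 0 to 75.5 CPM and BEC-like cells from 1.07 to 9.89 CPM. Selplg was low throughout. Among the 10 main types its highest mean was 12.1 CPM in neutrophil-like cells, followed by 3.24 CPM in NK&T-like and 2.40 CPM in macrophage-like cells, and only 6 of 6732 EC-like cells had a UMI of it. In VSMC-like cells it was seen in 0 of 2441 cells, which allows a share of up to 0.123%. That limit is one on cells with a UMI, not on cells expressing the gene, since also in neutrophil-like cells only 2.34% had a UMI of it.

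**Figure D1:**
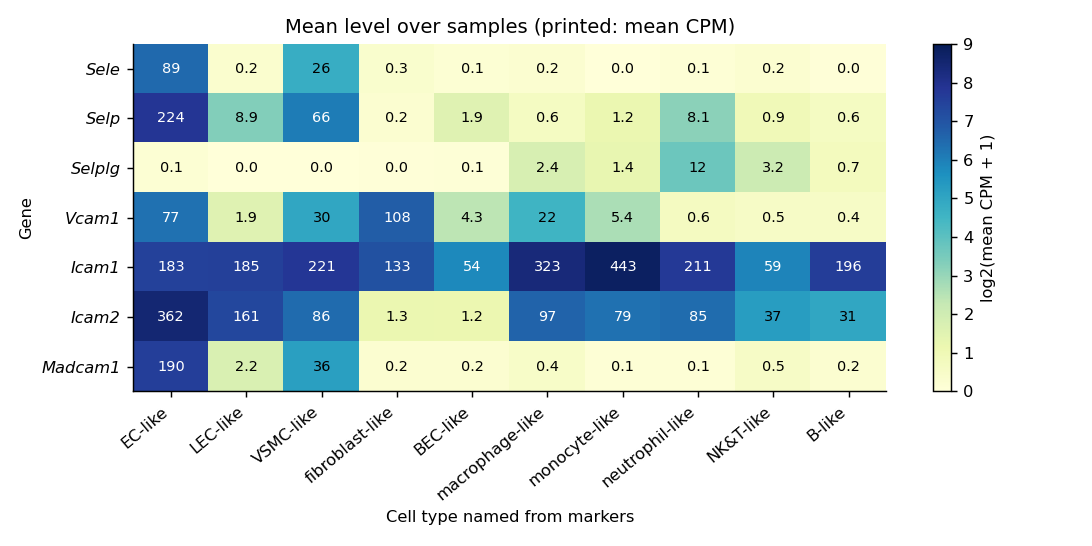
Mean level of each gene over samples in the 10 main named cell types, printed in CPM and coloured by log2(mean CPM + 1), to be read along a row. Sele, Selp and Madcam1 are highest in EC-like cells (means of 88.6, 224 and 190 CPM) and Sele and Madcam1 are below 1 CPM in epithelium and leukocytes, where Selp reaches 8.13 CPM in neutrophil-like cells, while Icam1 is above 50 CPM in all 10 types and leads in monocyte-like cells at 443 CPM.

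For each member, the genes most like it in mean log2(CPM + 1) over 12 cell types are named next. They were picked for that likeness, so they add no support to the division above. Likeness is Pearson's r over the 12 types, which share libraries and depth, and is a description only. For Sele the nearest were Bmp15, Gpihbp1 and Slco1a4, each at r = 0.999; Gpihbp1 is the capillary platform for lipoprotein lipase. For Madcam1 they were Sele, RGD1565166 and Sphkap, at r = 0.99. For Selp they were Tmem255b, Ripply3 and Sox17, an endothelial transcription factor, at r = 0.95. For Vcam1 they were Gulp1, Prickle2 and the stromal chemokine Cxcl12, at r = 0.93. Icam2 was nearest to the endothelial and blood-cell factor Fli1, to Abi3 and to Fxyd5, at r between 0.92 and 0.93. Icam1 was nearest to the interferon-pathway genes Stat2 and Gbp2 and to Eif2s3y, at r = 0.89. Selplg did not reach 10 CPM in any type on this log-averaged scale, and no gene is named for it.

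In EC-like cells Sele, Selp, Icam1 and Vcam1 were higher in treat than in ctrl on every day, by 1.12-fold to 5.84-fold, while Icam2 and Madcam1 were not. Sele was at 130, 56.6 and 157 CPM in sham1, sham2 and sham3. In ctrl it was at 21.4, 42.0 and 64.4 CPM on days 1, 3 and 7, and in treat at 125, 121 and 81.5 CPM. All 3 ctrl values lay below all 3 treat values, and the lowest sham value lay among the ctrl values.

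Selp was at 104, 250.1 and 379 CPM in the 3 sham samples. It was at 96.1, 122 and 159 CPM in ctrl and at 407, 317 and 178 CPM in treat on days 1, 3 and 7. Again every treat sample was above every ctrl sample, and the sham values spread over both. Icam1 in EC-like cells was at 90.9, 247 and 263 CPM in sham, at 58.0, 80.5 and 134 CPM in ctrl and at 287, 285 and 199 CPM in treat. Its ctrl and treat values did not overlap either.

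Vcam1 was at 37.4, 57.8 and 70.2 CPM in sham. In ctrl it was at 8.06, 45.0 and 65.9 CPM and in treat at 29.3, 218 and 166 CPM on days 1, 3 and 7. Both arms were lowest on day 1, and treat was above ctrl on each day. Icam2 was at 610, 347 and 311 CPM in sham, at 303, 361 and 391 CPM in ctrl and at 304, 260.4 and 375 CPM in treat, with sham1, the sample highest in endothelial markers, apart from the rest. Madcam1 was at 157, 210.2 and 207 CPM in sham, at 139, 102 and 296 CPM in ctrl and at 214, 219 and 164 CPM in treat, so its 3 groups overlapped.

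**Figure D2:**
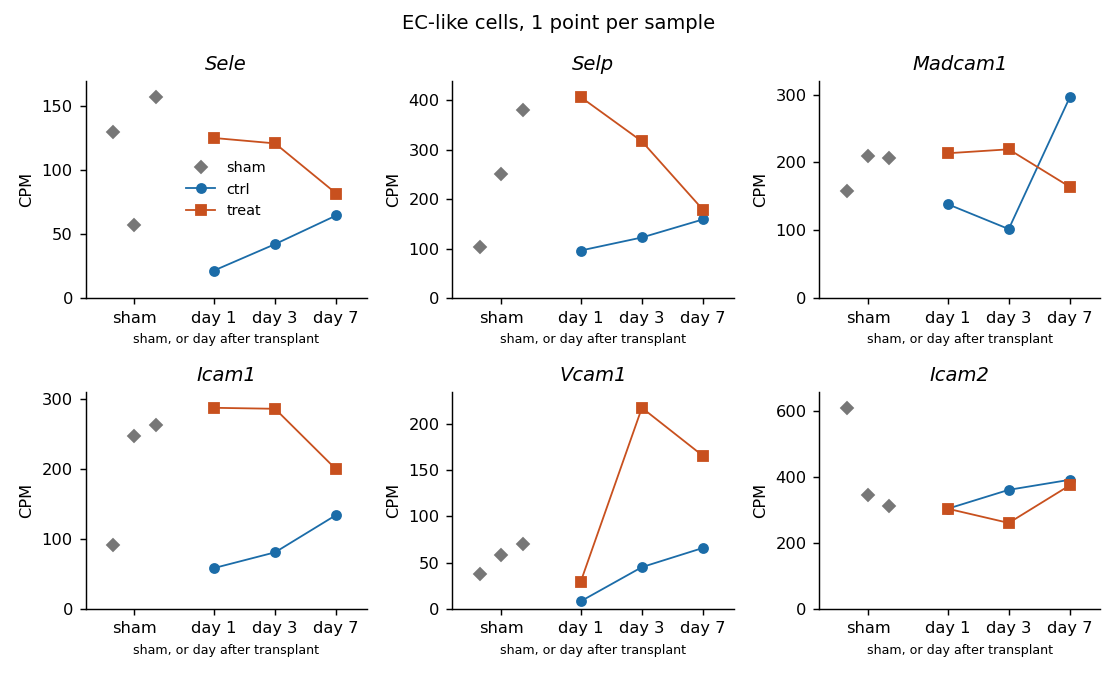
Level (CPM) of 6 members in EC-like cells, 1 point per sample, with sham at the left and days 1, 3 and 7 after LT joined within ctrl (blue) and treat (orange); there are no error bars because each point is 1 sample. Treat lies above ctrl on each day for Sele, Selp, Icam1 and Vcam1, and the gap in Sele narrows from 125 against 21.4 CPM on day 1 to 81.5 against 64.4 CPM on day 7.

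The first comparison asked how EC-like cells of the grafts, both arms and all days together, differed from sham. None of the 6 members that passed the low-count filter was called by edgeR at an adjusted p under 0.05, and none had an unadjusted p under 0.05, while 2.81% of all 9728 genes tested were called. Selplg did not pass the filter. The nearest was Sele, with a mean of 114 ± 51.8 CPM in sham (SD, n = 3) and 75.8 ± 41.6 in grafts (SD, n = 6) and a log2 fold change of -0.68 ± 0.36 (SE, adjusted p = 0.309, edgeR). Vcam1 was at 55.1 ± 16.6 against 88.6 ± 83.7 CPM, with a log2 fold change of 0.04 ± 0.27. The median log2 fold change was -0.29 over the 6 members and -0.03 over all genes. DESeq2 called none either. The exact two-sided permutation test of 3 sham against 6 graft samples gave p between 0.405 and 1 for the 6 genes, where the smallest p the design allows is 0.0119.

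The second comparison set EC-like cells of treat against those of ctrl at the same day. No member was called, but neither was any other gene: edgeR called 0% of 9728 genes, so this fit called no gene in either direction. An unadjusted p under 0.05 was found for 4 of the 6 members and for 9.28% of all genes, and these 4 members were higher in treat. Vcam1 had a log2 fold change of 1.85 ± 0.31 (SE, edgeR adjusted p = 0.119), Icam1 of 1.60 ± 0.45 (0.349), Sele of 1.48 ± 0.44 (0.362) and Selp of 1.25 ± 0.49 (0.490). Madcam1, at 0.32 ± 0.37, and Icam2, at -0.14 ± 0.22, were nearer to 0. The median was 1.36 over the 6 members against 0.01 over all genes.

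With 1 sample an arm and day, the ratios within a day have no replicate of their own. The treat level over the ctrl level of Sele was 5.84-fold on day 1, 2.87-fold on day 3 and 1.27-fold on day 7. For Selp the ratios were 4.23, 2.59 and 1.12, and for Icam1 4.95, 3.55 and 1.49. Vcam1 had 3.64, 4.83 and 2.51, the largest of these 4 genes on days 3 and 7. Icam2 had 1.00, 0.722 and 0.957, and Madcam1 1.54, 2.16 and 0.553. Sign flips within day, an exact permutation test, allow no p below 0.25, and 5 of the 6 genes stood at that limit.

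Other settings drew the line elsewhere. DESeq2 called Icam1 (adjusted p = 0.0462) and Vcam1 (adjusted p = 9.6e-05) in treat against ctrl, among 34 genes in all. Without the low-count filter edgeR called Icam1, Sele and Vcam1, and with each library as its own sample it called Vcam1, which treats libraries that may share a rat as replicates. Over all 20 alternatives the Vcam1 log2 fold change kept its sign, from 1.46 to 2.17, with adjusted p from 9.6e-05 to 0.721.

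**Figure D3:**
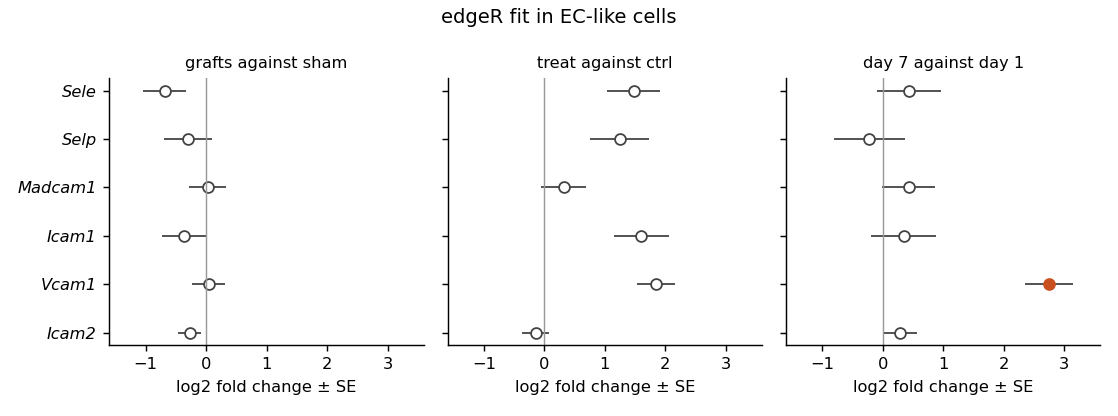
Log2 fold change (point) and standard error (bar) of 6 members in EC-like cells in the edgeR fit of all 9 samples, for grafts against sham, treat against ctrl at the same day, and day 7 against day 1 at the same arm; the filled point has an adjusted p under 0.05. Vcam1 at day 7 against day 1 (2.76 ± 0.40) is the filled one, and 4 genes lie between 1.25 and 1.85 in treat against ctrl without being called.

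The third comparison set day 7 against day 1 within the same arm. Vcam1 rose in EC-like cells, from 8.06 to 65.9 CPM in ctrl, an 8.18-fold change, and from 29.3 to 166 CPM in treat, a 5.65-fold change. It was the only member called of the 6 tested (log2 fold change 2.76 ± 0.40, SE, edgeR adjusted p = 0.0120), where 3.17% of all genes were called. Neither day 1 value reached the lowest sham value of 37.4 CPM. The edgeR call was lost without ctrl day 1 (adjusted p = 0.0973), without ctrl day 7 (0.170), without treat day 1 (0.166) and with no arm term (0.131), while the log2 fold change stayed between 2.34 and 3.16 over all alternatives.

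The other 5 members had log2 fold changes between -0.22 (Selp) and 0.44 (Sele) from day 1 to day 7, none with an unadjusted p under 0.05. For Sele the level on day 7 was 3.01-fold that on day 1 in ctrl and 0.653-fold in treat. Selp had 1.66-fold and 0.439-fold, and Icam1 2.31-fold and 0.693-fold. The ctrl values for the selectins rest on how the 3 libraries of ctrl day 1 are joined. Against its library 1 alone, ctrl day 7 would be 1.62-fold in Sele and 0.922-fold in Selp, which turns the direction for Selp, and 2.14-fold in Icam1. A model with a slope over the days in each arm gave a treat-minus-ctrl difference of -2.02 ± 0.85 for Sele (log2 from day 1 to day 7, SE). That difference had an edgeR adjusted p of 1.00, as 0 of 9728 genes were called and 179 had an unadjusted p under 0.05, Sele among them. For Vcam1 the slopes were 2.76 ± 1.07 in ctrl and 2.49 ± 1.21 in treat, with a difference of -0.28 ± 1.61.

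Libraries of 1 sample did not always agree, and the selectins on ctrl day 1 rested on 1 library. Its library 1, with 299 EC-like cells, had 39.8 CPM of Sele, 173 of Selp and 251 of Madcam1. Libraries 2 and 3, with 129 and 106 EC-like cells, had 0 and 1.55 CPM of Sele, 10.3 and 9.33 of Selp, and 9.15 and 15.5 of Madcam1. Icam1 was nevertheless close in the 3 libraries, at 62.6, 52.6 and 52.9 CPM. Against library 1 alone, treat day 1 would be 3.14-fold higher in Sele, 2.36-fold in Selp, 3.13-fold in Vcam1 and 4.58-fold in Icam1, and 0.851-fold in Madcam1.

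In treat day 1 all 3 libraries had Selp above 330 CPM and Sele above 92 CPM, so no library of ctrl day 1 reached the lowest of treat day 1 in either gene. On day 7 the libraries of the arms overlapped: Sele was at 33.2, 105 and 66.5 CPM in ctrl and at 73.0, 88.1 and 87.7 CPM in treat. Vcam1 separated the arms on day 7 also by library, with 67.0, 48.0 and 92.7 CPM in ctrl against 180.4, 187 and 118 CPM in treat. Ctrl day 3 rested on library 1, with 185 of its 204 EC-like cells, and read from that library alone the log2 fold change of Vcam1 in treat against ctrl was 1.85.

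**Figure D4:**
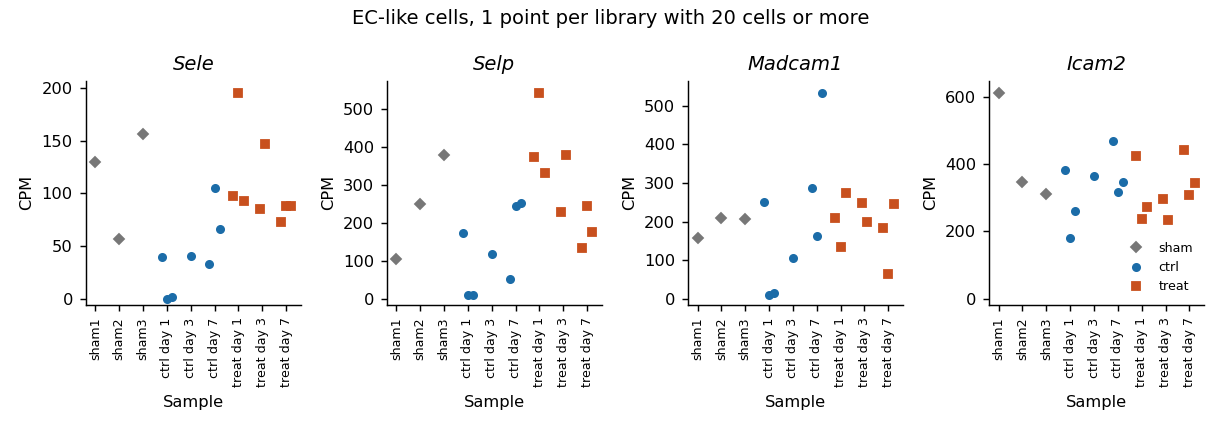
Level (CPM) of Sele, Selp, Madcam1 and Icam2 in EC-like cells of each library with 20 cells or more, 1 point per library, grouped by sample. The 3 libraries of ctrl day 1 split for Sele (39.8, 0 and 1.55 CPM), Selp and Madcam1, while every library of treat day 1 has a Sele level above 92 CPM and the Icam2 levels of all libraries lie between 181 and 610 CPM.

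Outside EC-like cells, 9 other cell types, the lymphatic LEC-like cells among them, gave 93 tests of a member over the 3 comparisons. Of these, 6 were called by edgeR, where 5.07% of all gene tests in those fits were called. An unadjusted p under 0.05 was found in 27 of the 93, and in 16.5% of all gene tests. Of the 6 calls 4 were gains and 2 were losses. The gains were Vcam1 in BEC-like, fibroblast-like and macrophage-like cells and Icam2 in fibroblast-like cells, and both losses were of Icam2. The count ran from 0 to 15 when 1 sample was left out. Without sham1 edgeR called 15. In VSMC-like cells these included Selp in grafts against sham (log2 fold change -2.36 ± 0.29, adjusted p = 0.00203) and Vcam1 in day 7 against day 1 (2.27 ± 0.42, adjusted p = 0.00914). Sham1, the sample left out, had 0 Selp UMIs in VSMC-like cells, against 83 and 180 in sham2 and sham3. The part of the endothelial markers of VSMC-like cells in these 2 calls was not tested. Another of the 15 was Vcam1 in day 7 against day 1 in monocyte-like cells (3.86 ± 0.69, SE, adjusted p = 0.0113). It did not pass the low-count filter with all samples, so it was not among the 93 tests.

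Vcam1 rose in biliary epithelium between day 1 and day 7. BEC-like cells had 1.07, 3.53 and 8.39 CPM in ctrl and 2.93, 5.89 and 9.89 CPM in treat on days 1, 3 and 7, against 2.15, 2.91 and 2.37 CPM in sham. Both day 7 samples were above every sham and day 1 sample. The log2 fold change was 2.10 ± 0.34 (SE, edgeR adjusted p = 0.0163), in a fit that called 15.3% of its genes. The counts were small but above free RNA: 185 and 308 UMIs on day 7, where 9.17 and 18.7 would be expected from the profile of empty barcodes. BEC-like cells joined 3 clusters, and the one led by Gkn3, Aqp5 and Agr2 gave the same order on its own, with 0.9, 4.0 and 8.7 CPM in ctrl and 1.4, 5.4 and 9.3 CPM in treat. The one led by Lypd8 and Wfdc21 had 1.2, 3.2 and 8.8 CPM in ctrl and 7.4, 10.1 and 11.4 CPM in treat. The third, led by Sfn and Crim1, had 15.6, 7.4 and 12.3 CPM in treat, the first of these from 2 UMIs in 49 cells, and in ctrl 0 CPM on day 1 and 5.1 CPM on day 7. Its share of BEC-like cells was 1.14% and 2.0% on day 1 and 15.4% and 32.2% on day 7 in ctrl and treat. The share of the Lypd8 cluster went from 63.2% to 20.8% in ctrl and from 33.6% to 6.54% in treat, and the part of these changes in makeup in the Vcam1 value was not tested. The call was lost without ctrl day 1, ctrl day 7, treat day 1 or treat day 7, with adjusted p between 0.0590 and 0.174.

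In fibroblast-like cells Vcam1 was at 103, 105 and 46.6 CPM in sham, at 49.2, 75.8 and 183 CPM in ctrl and at 59.6, 166 and 186 CPM in treat. It rose from day 1 to day 7 by a log2 fold change of 1.56 ± 0.43 (SE, edgeR adjusted p = 0.0279), among 29.7% of genes called in that fit. The makeup of these cells changed at the same time. A cluster led by Ptx3 and Mgp was 96.5% and 96.8% of fibroblast-like cells on day 1, a cluster led by Cthrc1 and Mfap5 was 86.9% and 91.4% on day 7, and a cluster led by Ogn and Gpc3 was 73.2% to 90.7% in sham. Within the Cthrc1 cluster Vcam1 was at 79.9, 186 and 198 CPM in treat, and in ctrl at 86.8 CPM on day 3 and 190 CPM on day 7. Within the Ptx3 cluster it was at 44.1 CPM on day 1 and 148 CPM on day 7 in ctrl, but at 59.0 and 21.2 CPM in treat. The part of this change in makeup in the Vcam1 value was not tested. The call was lost without ctrl day 1, ctrl day 7, treat day 1 or treat day 7, with adjusted p between 0.0698 and 0.256.

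Macrophage-like cells had almost no Vcam1 in sham, at 0, 3.63 and 5.77 CPM. They had 1.88, 6.72 and 70.5 CPM in ctrl and 14.1, 22.0 and 75.5 CPM in treat on days 1, 3 and 7, so both day 7 samples stood far above all others. Over all grafts the log2 fold change against sham was 2.32 ± 0.56 (SE, edgeR adjusted p = 0.0419), with 9.87% of genes called. From day 1 to day 7 it was 3.77 ± 0.69, with an edgeR adjusted p of 0.110, in a fit that called 2 genes. DESeq2 called it (adjusted p = 5.71e-05), as did edgeR without sham1 (adjusted p = 0.00968). Within the cluster led by C1qa, C1qc and C1qb, which was 70.6% and 71.8% of macrophage-like cells on day 7 and 18.4% to 27.9% in sham, Vcam1 was at 0, 1.1 and 1.1 CPM in sham and at 74.8 and 80.2 CPM on day 7. The call against sham was lost when any 1 of 8 samples was left out, all but sham1, with adjusted p between 0.0616 and 0.183.

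**Figure D5:**
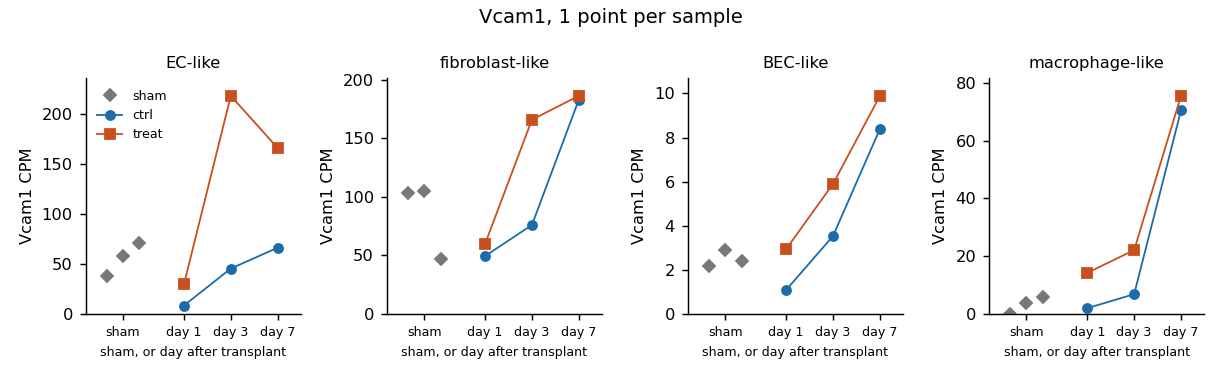
Vcam1 level (CPM) in EC-like, fibroblast-like, BEC-like and macrophage-like cells, 1 point per sample, with sham at the left and days 1, 3 and 7 joined within ctrl and treat; each panel has its own axis from 0. In all 4 types the day 7 samples are above the day 1 samples of the same arm, and in macrophage-like cells the 2 day 7 samples (70.5 and 75.5 CPM) are far above the sham samples (at most 5.77 CPM).

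Icam2 was lower in grafts than in sham in 2 cell types. Macrophage-like cells had 149, 143 and 130 CPM in sham, 97.3, 71.0 and 69.2 CPM in ctrl and 98.9, 47.6 and 70.5 CPM in treat, with no overlap of grafts and sham. The log2 fold change was -0.84 ± 0.15 (SE, edgeR adjusted p = 0.0214). The clusters that made up this class also differed, with a cluster led by Mrc1 and Cd163 at 74.6% and 68.2% in sham2 and sham3 and at most 39.3% in any graft. Sham1 did not share this, with 0.262% of its macrophage-like cells in that cluster. Within that Mrc1 cluster Icam2 was at 153 and 142 CPM in sham2 and sham3 and at 65.6 to 128 CPM in the grafts. Within the C1qa cluster sham, at 89.6 to 178 CPM, and grafts, at 46.5 to 123 CPM, overlapped. The call was lost in 7 of the 9 fits that left out 1 sample, all but those without sham1 and without ctrl day 3, with adjusted p up to 0.140.

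LEC-like cells had 290, 235 and 193 CPM of Icam2 in sham, 135 and 100.1 CPM in ctrl on days 1 and 7, and 129, 91.3 and 113 CPM in treat. Ctrl day 3 had only 11 LEC-like cells and was left out. Grafts and sham did not overlap, and the log2 fold change was -1.01 ± 0.22 (SE, 8 samples, edgeR adjusted p = 0.0248), where 5.04% of genes were called. The call was lost without sham2, ctrl day 1, ctrl day 7 or treat day 1, with adjusted p between 0.0702 and 0.207. The 6 lymphatic markers summed to 70632 to 99944 CPM in sham, 23350 to 27775 CPM in ctrl and 25680 to 70338 CPM in treat, and the 9 neutrophil markers to 8.06 to 17.2, 153 to 1322 and 25.5 to 1865 CPM. Their part in the Icam2 value was not tested. The Icam2 call in fibroblast-like cells (day 7 against day 1, 2.03 ± 0.50, edgeR adjusted p = 0.0177) rested on 28 UMIs on day 7 in each arm, where 16.7 and 15.5 would come from free RNA, so it lay near background. This call was lost without ctrl day 1, ctrl day 7, treat day 1 or treat day 7, with adjusted p between 0.0658 and 0.199.

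By edgeR under the main settings Icam1 was called in no cell type. In macrophage-like cells it was at 226, 669 and 659 CPM in sham, 116, 130.5 and 242 CPM in ctrl and 239, 303 and 323 CPM in treat. Only sham1 overlapped the grafts. The log2 fold change against sham was -1.21 ± 0.35 (SE, edgeR adjusted p = 0.0618). DESeq2 called it (adjusted p = 0.0257), as did edgeR without sham1 (adjusted p = 0.00139). Sham1 differed from the other sham samples in makeup: 81.4% of its macrophage-like cells were in a shallow cluster led by Cxcl13 and Fcgr3a, which had 8.2 to 43.4 CPM of Icam1 in every sample. In the C1qa cluster Icam1 was at 442, 913 and 862 CPM in sham and at 153 to 436 CPM in grafts, without overlap, although sham1 and treat day 1 nearly met.

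Treat against ctrl gave no call by edgeR under the main settings among 31 tests of members in the other types. An unadjusted p under 0.05 was found for 8 of them, against 6.67% of all gene tests in these fits, DESeq2 called none, and edgeR called at most 0.368% of all genes in any of these fits. Of the 8, 4 were in VSMC-like cells, where Selp had a log2 fold change of 2.50 ± 0.92, Sele of 2.21 ± 0.64, Vcam1 of 1.32 ± 0.48 and Icam1 of 1.22 ± 0.40 (SE). Without sham1 edgeR called Sele and Selp there (adjusted p = 0.0236 and 0.0202), and with no low-count filter it called these 4 genes and Madcam1, with adjusted p up to 0.00594. The summed endothelial markers in VSMC-like cells, given above, were also higher in every treat sample than in every ctrl sample. In fibroblast-like cells Icam1 was at 126, 215 and 169 CPM in treat against 75.9, 92.3 and 132 CPM in ctrl (log2 fold change 0.74 ± 0.21, edgeR adjusted p = 0.312). The other three were Icam1 and Vcam1 in BEC-like cells, with log2 fold changes of 1.07 ± 0.45 and 0.74 ± 0.28, and Icam2 in B-like cells, which was lower in treat at -0.76 ± 0.35 (SE).

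Summed over all cells of a sample, the Selplg level was 0.752, 0.359 and 0.286 CPM in sham, 1.47, 4.15 and 1.88 CPM in ctrl and 0.930, 1.19 and 2.32 CPM in treat. No graft overlapped sham. The sham values rested on 7, 20 and 19 Selplg UMIs and the graft values on 110 to 315. In empty barcodes Selplg was at 1.47, 0 and 0.566 CPM in sham and at 0.554 to 1.88 CPM in grafts. The log2 fold change was 2.45 ± 0.46 (SE, edgeR adjusted p = 0.0222), and it was 1 of 7 members called where 17.7% of 15954 genes were, so the members were called no more often than other genes. The exact two-sided permutation test of 3 against 6 samples gave p = 0.0238 before any correction, the lowest of 7 such tests. In sums of this kind more cells of a type and more RNA per cell cannot be told apart, and neutrophil-like cells, which had the highest Selplg level, were 0.0976% to 2.91% of cells in sham and 3.76% to 32.0% in grafts. The call was lost without sham2, sham3, ctrl day 7 or treat day 7, with adjusted p between 0.0553 and 0.106.

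No other comparison over all cells had a member called. For treat against ctrl 0% of all genes were called, and Selp, at 17.1, 21.8 and 12.0 CPM in treat against 6.15, 7.24 and 7.95 CPM in ctrl, had a log2 fold change of 1.17 ± 0.27 (SE, edgeR adjusted p = 0.975). DESeq2 called 47 genes there and no member. For day 7 against day 1 the share called was 2.8%, and Icam1 had the lowest adjusted p of the members, 0.221.

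In neutrophil-like cells themselves Selplg was at 18.0 and 0 CPM in sham1 and sham3, at 9.79, 20.6 and 8.77 CPM in ctrl and at 12.6, 9.4 and 17.9 CPM in treat. These cells numbered only 66, 9 and 24 in sham against 969 to 3449 in grafts, and sham2 was left out of their fit. No member was called there in grafts against sham, treat against ctrl or day 7 against day 1, where 0.259%, 0.368% and 3.77% of genes were. Selp was seen in neutrophil-like cells of all 6 graft samples, at 7.63 to 17.2 CPM, from 13 to 82 UMIs a sample where free RNA would give 0.3 to 3.32. It was seen in 0 of 99 sham cells, which allows a share of up to 3.03%, while 1.96% of all neutrophil-like cells in the 8 samples fitted had a Selp UMI, so the sham cells were too few to show a difference.

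The other genes of the pathway were followed in EC-like cells by 5 lists. Of these, leukocyte selectin and selectin ligand synthesis had 8 of 13 genes tested, integrins and their activation 9 of 13, endothelial junction and transmigration 11 of 14, cytokine and NF-κB input 14 of 22, and shedding of adhesion molecules 4 of 5. In grafts against sham, 3 of the 46 genes tested were called, where 2.81% of all genes were: 1 cytokine gene rose and 1 ligand-synthesis gene and 1 junction gene fell. In treat against ctrl no gene of any list was called. In day 7 against day 1, where 3.17% of all genes were called, 1 gene rose in each of the ligand-synthesis, junction and shedding lists, and no integrin gene was called in any comparison. For treat against ctrl the median log2 fold change was 0.44 in the shedding list, 0.34 in the cytokine list, 0.11 in the junction list, 0.02 in the ligand-synthesis list and -0.07 in the integrin list, where it was 0.01 over all genes. For grafts against sham the medians lay between -0.32 (shedding) and 0.07 (integrins), against -0.03 over all genes. For day 7 against day 1 they lay between 0.11 (ligand synthesis) and 0.66 (shedding), against 0.02.

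Gcnt1, the enzyme that builds the core-2 sugar branch of selectin ligands, fell in grafts, from 58.0, 41.6 and 48.7 CPM in sham to between 12.1 and 32.9 CPM. Its log2 fold change was -1.20 ± 0.17 (SE, edgeR adjusted p = 0.0130), and it rose from day 1 to day 7 by 1.23 ± 0.24 (edgeR adjusted p = 0.0330). Jam3, a junctional adhesion molecule, fell from 131, 54.3 and 57.4 CPM to between 22.1 and 39.9 CPM (-1.39 ± 0.26, edgeR adjusted p = 0.0272). The summed endothelial markers of EC-like cells, given above, were also lower in every graft than in sham. Sham1 was the highest sample in those markers and in both genes. The part of the markers in the Gcnt1 and Jam3 values was not tested. Cd34, a sialomucin of vascular endothelium that can carry L-selectin ligand, rose from day 1 to day 7 by 1.45 ± 0.29 (edgeR adjusted p = 0.0351), with 22.3 and 34.3 CPM on day 1 and 86.4 and 74.2 CPM on day 7 in ctrl and treat. Cd34 was at 100.2 and 53.6 CPM on day 3 and at 110.7, 63.5 and 81.2 CPM in sham. Its day 1 values thus lay below every sham value, and its day 7 values lay within the sham range. Timp3, an inhibitor of the sheddase ADAM17, rose from day 1 to day 7 by 1.75 ± 0.34 (edgeR adjusted p = 0.0330), with 40.9 and 48.2 CPM on day 1 and 130 and 186 CPM on day 7. Timp3 was at 79.5 and 193 CPM on day 3 and at 167, 108 and 117 CPM in sham. Its day 1 values also lay below every sham value, while on day 7 ctrl lay within the sham range and treat above it.

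Il1b, the cytokine that switches on E-selectin and other adhesion genes, rose in the EC-like cells of grafts. It was at 3.8, 6.4 and 2.9 CPM in sham and at 9.8 to 55.9 CPM in grafts, a log2 fold change of 2.79 ± 0.45 (SE, edgeR adjusted p = 0.0209). The neutrophil markers summed in EC-like cells moved the same way, at 14.5 to 18.6 CPM in sham, 118 to 1034 in ctrl and 29.8 to 283 in treat, where up to 6, 4 and 3 of the 9 markers were at 0 in a sample, and their part in the Il1b value was not tested. In neutrophil-like cells the 1 list gene called was Spn (leukosialin), in day 7 against day 1, where 3.77% of all genes were called. Spn was at 1.7 and 3.2 CPM on day 1 and at 5.5 and 18.6 CPM on day 7 in ctrl and treat (log2 fold change 1.99 ± 0.56, edgeR adjusted p = 0.0382). These levels rested on 13 and 20 UMIs on day 1 and on 23 and 27 UMIs on day 7. On day 3 Spn was at 3.6 CPM in ctrl and, from 3 UMIs, at 1.8 CPM in treat. No Spn UMI was seen in sham1 or sham3.

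Over single EC-like cells Selp and Vcam1 were seen more often in cells with a Sele UMI, and other pairs are not given here. Of the 1069 cells with a Sele UMI, 71.0% also had a Selp UMI, against 19.8% of the cells without Sele, and the share with Vcam1 was 40.2% against 13.5%. The cells with Sele were deeper, with a median of 5685 UMIs against 3290, so depth differed along with the share. By sample, Selp was seen in 60.3% to 79.3% of the cells with Sele and in 3.68% to 25.5% of those without, and Vcam1 in 12.9% to 63.6% and 2.58% to 23.9%. Within each of the 9 samples the share was higher in the cells with Sele for both genes, on as few as 29 such cells in a sample. After thinning every cell to 2000 UMIs, which left out 1722 shallower cells, Sele was seen in 3.71% to 16.5% of EC-like cells per sample, Selp in 8.58% to 35.0% and Icam2 in 40.0% to 66.4%.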

How the data were processed

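The authors deposited 1 matrix of raw UMI counts per library, made with Cell Ranger (5.0.1 in the submitters' processing notes, which also name Seurat 3.2.0), and the genome build is not given in the sources used here. These matrices held empty barcodes, so cells were called again: 400 to 6000 genes, at most 25% mitochondrial and 3% hemoglobin UMIs, and the 7.5% of barcodes with the highest doublet score removed per library. The tissue had been digested with enzymes, with lysis of red cells and removal of dead cells, which bears on which cells were seen. Features sharing a symbol were summed, 23999 to 23836. Cells were clustered on 2000 variable genes and 30 principal components (Leiden resolution 0.9, 37 clusters; leidenalg 0.10.2, scikit-learn 1.9.0, scipy 1.17.1, Python 3.11.15), and named from marker lists.

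UMI counts were summed per sample and type with 20 cells or more. The sums were tested with edgeR 4.0.16 in R 4.3.3 (quasi-likelihood, TMM, filterByExpr) over all 9 samples, with terms for arm and day and Benjamini-Hochberg adjustment over all genes of a fit. A call is an adjusted p under 0.05. Free RNA was estimated from barcodes of at most 100 UMIs, and the estimate of its share was tested on simulated sums. Cell calling, clustering and naming were not tested in this way. Alternatives were library-size scaling, DESeq2 1.42.0, no low-count filter, each library as a sample, fewer groups or terms, doublets kept, empty-barcode RNA subtracted, Leiden resolution 2, and each sample left out. Ctrl day 3 by library 1 alone, EC-like cells without a small cluster of 112 cells, the slope model and the alternatives for other cell types were chosen after seeing the data. The members and lists were chosen with earlier results of these data known. Besides the members, the text names up to 3 called genes a direction from each of 5 pathway lists, in EC-like and neutrophil-like cells, and the 3 genes most alike each member. Depth ran from 9309418 to 195778957 UMIs in cells per sample, with a median of 2822 to 5395 UMIs per cell.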

Additional observations from a re-analysis of the deposited data

How the results depend on the processing

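Of the values of single members in EC-like cells and in all cells, 661 under an alternative kept their direction and their side of the threshold, 8 lost and 8 gained a call, 45 changed sign, and the unthinned shares of EC-like cells with Sele and Icam2 moved to 14.6% and 62.3%. Calls lost for single members in the other cell types stand beside those results. The counts of calls moved when samples were left out: members called ranged from 0 to 1 in EC-like cells at day 7 against day 1 and in all cells at grafts against sham when 1 sample was left out. For the other cell types the range was 0 to 15 around 6, with 15 without sham1 and 0 without ctrl day 1, ctrl day 7 or treat day 1. Which members passed the low-count filter in these types also changed with the sample left out. Those types gave 11 calls with DESeq2, 20 with no low-count filter and 11 with each library as its own sample. In EC-like cells treat against ctrl gave 2, 3 and 1 calls under the same settings in place of 0. Day 7 against day 1 gave 0 in EC-like cells with no arm term and 2 in all cells when libraries were fitted singly. The cause of these moves was not tested. An LEC-like fit without treat day 3 could not be made, since no sample of that day would be left.

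These log2 fold changes turned in sign. In EC-like cells, grafts against sham, library-size scaling gave -0.014 for Vcam1 and -0.044 for Madcam1, ctrl alone against sham gave -0.46 and -0.037, and Leiden resolution 2 gave -0.0097 and -0.079. At day 7 against day 1 with no arm term Sele was -0.0022 and Icam1 -0.044, and Selp was 0.056 by library. In all cells, grafts against sham, library-size scaling, which moved the median of all genes by -0.31, gave Selp -0.23 and Icam1 -0.0076, while ctrl alone gave Selp -0.47 and Icam2 0.036. Selp by library was 0.27 at day 7 against day 1. Leaving out 1 sample gave these ranges in EC-like cells: for grafts against sham, Selp -0.67 to 0.21, Vcam1 -0.19 to 0.29, Icam2 -0.40 to 0.028 and Madcam1 -0.33 to 0.27, and for treat against ctrl Madcam1 -0.23 to 0.91. For day 7 against day 1 they were Sele -0.45 to 1.27, Selp -1.08 to 0.50, Icam1 -0.48 to 1.04 and Madcam1 -0.59 to 1.16. In all cells, grafts against sham ranged for Sele from -1.40 to 0.10, Selp -0.10 to 0.28, Vcam1 -0.62 to 0.45, Icam2 -0.50 to 0.75 and Madcam1 -0.50 to 0.52, treat against ctrl for Madcam1 from -0.055 to 1.14, and day 7 against day 1 for Selp from -0.68 to 0.44 and Madcam1 from -0.053 to 1.75.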
